A study of Mus musculus with 9 samples.

Results

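Chemokines are small secreted proteins that direct the movement of leukocytes, and interleukins are secreted signals exchanged mainly between immune and tissue cells. Their genes, together with the genes of their receptors, were taken from a set of 9 expression arrays of mouse hearts by gene symbol (Ccl, Ccr, Cxcl, Cxcr or Il followed by a digit, or Cx3c). The pattern found 127 of the 20239 named genes on the array: 32 chemokine ligands, 17 chemokine receptors, 36 interleukins, 34 interleukin receptors, 6 antagonists or decoys and 2 genes matched by symbol only. The last 2 are Il4i1b, which encodes an L-amino acid oxidase, and Il1bos, an antisense transcript. The pattern reads symbols only and no measured value.

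The arrays held 3 groups of 3 whole hearts from male C57BL/6 mice, each heart on its own array. In the first group, called TAC-NT here, mice carried AAV with the coding sequence of HDAC4 amino acids 1 to 201, here HDAC4-NT, and had transaortic constriction (TAC), a narrowing of the aorta that makes the left ventricle pump against a higher pressure. In the second group, TAC-LUC, the mice carried AAV-Luc, with luciferase as the control protein, and had the same constriction. In the third group, sham, the mice carried AAV-Luc and had the sham operation. Every mouse therefore received an AAV whose cargo stood under the MLC promoter, a myosin light chain promoter that is active in heart muscle cells. Virus was given at 8 weeks of age, surgery followed after 4 weeks, and the hearts were collected 4 weeks after that. There was no sham group with HDAC4-NT, so HDAC4-NT in the unloaded heart is not measured here. The comparison of TAC-LUC with sham asks what pressure overload changed, and that of TAC-NT with TAC-LUC asks what HDAC4-NT changed under it.

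Chemokines fall into classes named after the spacing of conserved cysteines: CC (Ccl), CXC (Cxcl) and CX3C (Cx3cl1). They act through G protein-coupled receptors, which carry leukocytes along a gradient, and atypical receptors take ligands up without that signal. Interleukins act through receptors built of several chains, of which a shared chain often serves several ligands: Il6st (gp130) serves the interleukin-6 family, Il10rb the interleukin-10 family, and Il4ra with Il13ra1 both interleukin-4 and interleukin-13. In the heart, resident macrophages, endothelium, fibroblasts and cardiomyocytes all make or receive such signals.

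Values are RMA log2 signals, so a difference of 1 is a 2-fold change. RMA values do not state whether a gene is detected, and the level of 1 gene's probes cannot be set against that of another. Whole hearts were measured, so fewer cells of a type and less RNA per cell cannot be told apart. All 8 cardiomyocyte markers examined lay between 11.7 and 14.1 in every array, near the top of the table's range of 5.03 to 14.1. Precision is limited by the small number of arrays, and the standard error of a log2 difference had a median of 0.0697. Hdac4 had 7.04, 6.95 and 6.88 in TAC-NT hearts, 6.93, 7.08 and 6.90 in TAC-LUC hearts and 7.08, 7.12 and 7.19 in sham hearts. The sources used here do not say which stretch of Hdac4 the probes cover, so these values do not check the delivered fragment. The TAC-LUC hearts did not form 1 group. Over the 12597 genes tested, TAC-LUC heart 1 correlated with the TAC-NT hearts at r of 0.9914 to 0.9918 and with TAC-LUC hearts 2 and 3 at 0.9857 to 0.9867. In the labels' sample codes heart 1 carries the number 8 and hearts 2 and 3 the number 9, whose meaning is not stated. For the chemokine and interleukin genes, calls that rest on these hearts are given with and without them.

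Promoter windows are shown here for 3 of the called genes, Cxcl10, Il4ra and Cx3cl1. Cxcl10 and Cx3cl1 were both above every sham heart in all 6 TAC hearts and highest in TAC-LUC heart 1. Il4ra was highest in TAC-LUC hearts 2 and 3. Each window runs from 250 bases before to 50 after the gene's start, is taken from RefSeq on GRCm38.p6 and is printed 5′ to 3′ on the gene's strand. Capitals mark matches, on either strand, to the NF-kB consensus, to the core of the interferon-stimulated response element (ISRE: GAAA, any pair of bases, GAAA) or to TTCNNNGAA (the GAS element bound by STAT factors). The windows lie at chr5:92348840-92349139 on the minus strand for Cxcl10, at chr7:125552021-125552320 on the plus strand for Il4ra, and at chr8:94771930-94772229 on the plus strand for Cx3cl1.
Cxcl10: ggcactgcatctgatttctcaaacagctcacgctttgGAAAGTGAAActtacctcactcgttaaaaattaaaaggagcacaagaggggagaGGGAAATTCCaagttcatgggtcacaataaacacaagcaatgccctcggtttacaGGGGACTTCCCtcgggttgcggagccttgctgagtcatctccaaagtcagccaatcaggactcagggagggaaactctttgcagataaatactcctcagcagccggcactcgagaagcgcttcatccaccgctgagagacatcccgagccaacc
Il4ra: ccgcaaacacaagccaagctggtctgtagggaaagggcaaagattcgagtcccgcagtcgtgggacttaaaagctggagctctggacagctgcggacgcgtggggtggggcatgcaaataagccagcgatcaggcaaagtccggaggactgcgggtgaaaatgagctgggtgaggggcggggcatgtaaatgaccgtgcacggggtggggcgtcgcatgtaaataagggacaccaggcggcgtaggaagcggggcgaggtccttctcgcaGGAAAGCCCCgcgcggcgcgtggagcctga
Cx3cl1: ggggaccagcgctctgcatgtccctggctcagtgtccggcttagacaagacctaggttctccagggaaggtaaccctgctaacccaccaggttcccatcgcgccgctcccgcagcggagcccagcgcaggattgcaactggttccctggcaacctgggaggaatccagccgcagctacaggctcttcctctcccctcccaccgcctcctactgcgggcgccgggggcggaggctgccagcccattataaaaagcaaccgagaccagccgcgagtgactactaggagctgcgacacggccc

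In the Cxcl10 window the ISRE core began at position -213 from the start, and NF-kB matches began at -159 and, overlapping each other, at -104 and -103. The Il4ra window held 1 NF-kB match, beginning at position 21 after the start, and the Cx3cl1 window held no match to the 3 motifs in these letters. Of 32851 such windows, 8.5% held the NF-kB consensus, 3.4% the ISRE core and 8.3% GAS. A window was listed for 96 of the 127 genes. Of the 130 windows whose gene symbol matched the pattern, 14.6% held the NF-kB consensus, 4.6% the ISRE core and 11.5% GAS. The 130 were not restricted to the 127 genes. A match describes the letters and is not a measured binding site.

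Most of these genes had low signal in the heart. In at least 3 of the 9 arrays, 54 of the 127 (42.5%) exceeded the 40th percentile of the whole table, log2 5.66. Of all named genes, 62.2% did. By role, 17 of 32 chemokine ligands, 5 of 17 chemokine receptors, 11 of 36 interleukins, 18 of 34 interleukin receptors and 2 of 6 antagonists or decoys lay above the limit, as did Il4i1b. In all 9 arrays 40 genes lay above it, and in none of them 63 genes lay above it. The count was 74 at the 30th percentile and 39 at the 50th.

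**Figure D1:**
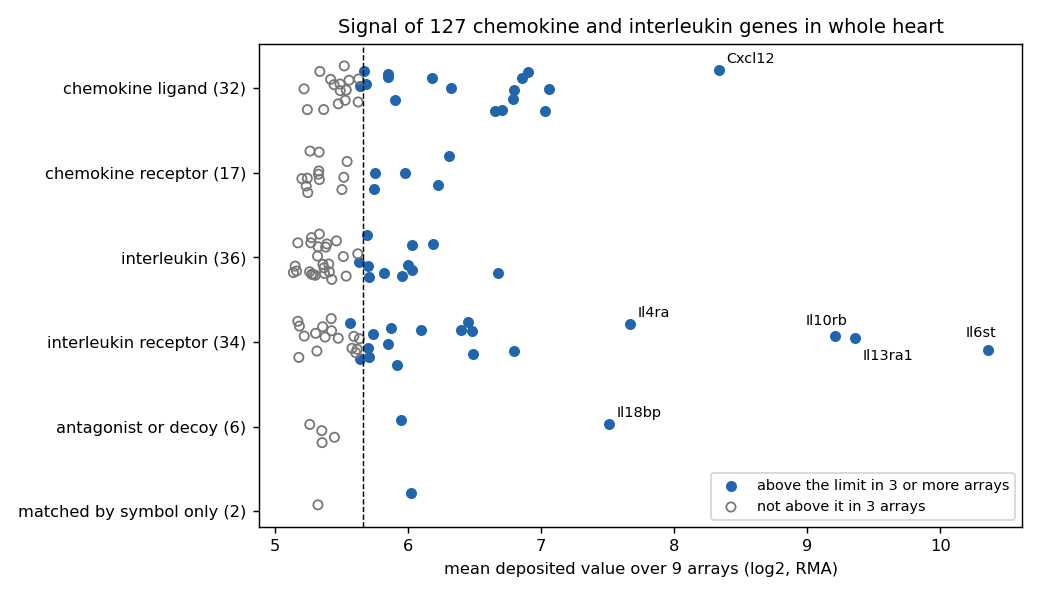
Mean deposited value over the 9 arrays (log2, x axis) of each of the 127 genes, by role with the number of genes (y axis, jittered within a role). The dashed line is the 40th percentile of all values (5.66), filled points are the 54 genes above it in 3 or more arrays, open circles are the 73 others, and a filled point left of the line was above it in some arrays only. Signal depends on each gene's probes, so positions show which genes clear the limit and not which gene is more abundant.

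The genes that cleared the limit in every array included Il6st, the shared gp130 chain, with values of 10.2 to 10.5, and the receptor chains Il13ra1 and Il10rb. Cxcl12, which stromal cells make and which retains Cxcr4-bearing cells in tissues, also cleared it, with 8.50, 8.26 and 8.41 in TAC-NT, 8.41, 7.87 and 7.89 in TAC-LUC and 8.83, 8.51 and 8.37 in sham hearts. Of the 5 chemokine receptors tested, Cx3cr1, Cxcr4 and Ccr7 cleared it in every array, Cxcr1 in 8 arrays and Ccr10 in 7. The monocyte receptor Ccr2 was above it in 1 array only, with 5.58, 5.60 and 5.67 in TAC-NT, 5.60, 5.37 and 5.41 in TAC-LUC and 5.45, 5.44 and 5.41 in sham hearts.

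Several cytokines often studied in pressure overload stayed at the foot of the scale. Il6 had 5.15, 5.13 and 5.17 in TAC-NT, 5.15, 5.38 and 5.19 in TAC-LUC and 5.13, 5.13 and 5.12 in sham hearts. Il1b had 5.34, 5.33 and 5.39 in TAC-NT, 5.37, 5.58 and 5.42 in TAC-LUC and 5.39, 5.40 and 5.45 in sham hearts. Il10, Il11, Il18, Ccl8, Cxcl2 and Cxcl5 were above the limit in 0 of 9 arrays. The 73 genes under the limit had means of 5.14 to 5.64 and spanned at most 0.388 over the 9 arrays, and were left out of the test. A change of a gene whose probes barely respond cannot be seen with these values.

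At the limit itself, Ccl3, Ccl11, Cxcl17, Il12rb1 and Il1rl2 were above it in exactly 3 arrays and were tested. Il2ra (mean 5.64), Cxcl13 (5.63), Ccl27a (5.63) and Il31 (5.62) were above it in 2 arrays and were not. Ccl11 passed only through the 3 sham hearts, Il1rl2 only through the 3 TAC-NT hearts, Cxcl10 only through the 6 TAC hearts and Ccl3 only through TAC-NT hearts 1 and 3 and TAC-LUC heart 1, so these had to differ between hearts to be tested.

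In TAC-LUC hearts against sham hearts, 9 of the 54 genes tested rose and 5 fell (25.9%), at an adjusted p under 0.05 (limma, Benjamini-Hochberg over all genes tested). Of all genes tested 26.1% were called, 11.2% higher and 14.9% lower, so the share of chemokine and interleukin genes was near that of all genes. Those that rose were the ligands Cx3cl1, Cxcl16 and Cxcl10, the receptor chains Il4ra, Il1r1, Il17ra, Il13ra1 and Il6ra, and the antagonist Il18bp. Those that fell were Il15 and its receptor Il15ra, Il10rb, Cxcl12 and Ccl11. Of these, Cxcl10 passed the filter only through TAC hearts and Ccl11 only through sham hearts, so both calls were partly set by the filter. All 3 TAC-LUC hearts lay above all sham hearts for 13 of the 54 genes and below them for 4, against 15.9% and 21.6% of all genes tested. Among the 13 were Cxcl10 and Ccl3, which passed the filter only through TAC hearts. Among the 4 was Ccl11, which passed only through sham hearts. The median log2 difference was 0.039 over the 54 genes and -0.012 over all genes tested. The count of calls was 9 (16.7%) without TAC-LUC heart 3, without sham heart 1 or without sham heart 2, where 21.4%, 19.3% and 22.6% of all genes tested were called.

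In TAC-NT hearts against the same sham hearts, 5 genes rose and 4 fell (16.7%), while 22.8% of all genes tested were called, 10.5% higher and 12.3% lower. Those that rose were Cx3cl1, Cxcl16, Il18bp, Il13ra1 and Cxcr4, and those that fell were Il10rb, Il15, Il15ra and Ccl11. All TAC-NT hearts lay above all sham hearts for 17 of the 54 genes and below them for 6, against 18.3% and 21.5% of all genes tested. Among the 17 were Cxcl10, Ccl3 and Il1rl2, which passed the filter only through TAC hearts. Among the 6 was Ccl11, which passed only through sham hearts, so its call was partly set by the filter. The median log2 difference was 0.025 over the 54 genes and -0.012 over all genes. Without TAC-LUC heart 1, whose values enter the shared estimate of spread, the count in TAC-NT against sham was 15, with Ccl3, Ccl5, Cx3cr1, Cxcl10, Il16 and Il1rl2 added. That is 27.8% of the 54, where 25.1% of all genes tested were called. Of the added genes, Ccl3, Cxcl10 and Il1rl2 passed the filter only through TAC hearts, so their differences from sham were partly set by the filter. Both comparisons use the same sham hearts, so their results are not independent of each other.

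**Figure D2:**
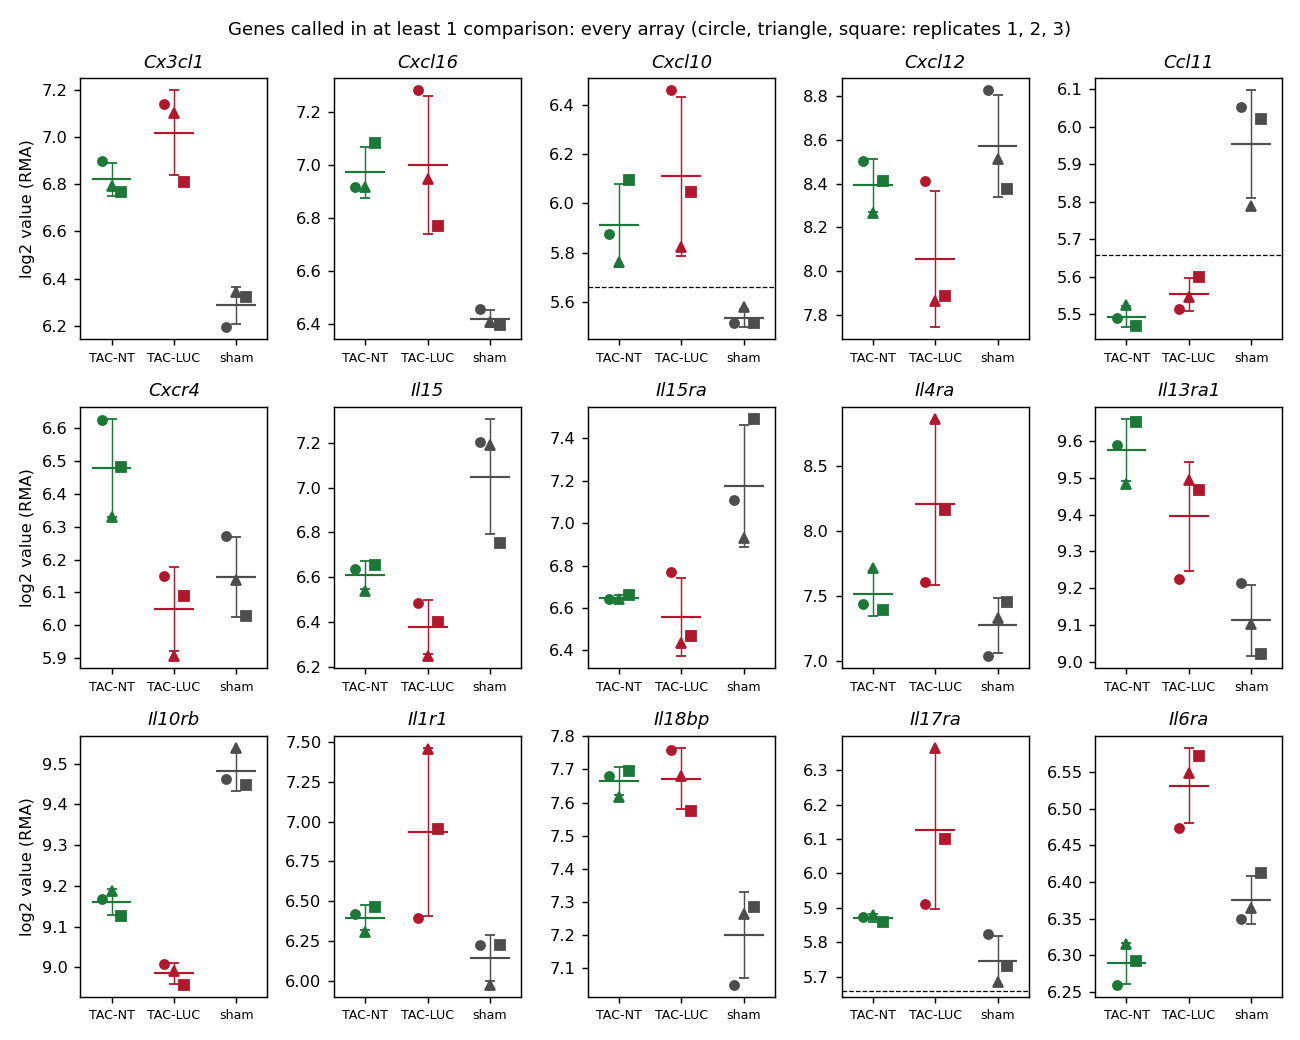
Deposited values (log2, y axis) of the 15 genes called in at least 1 comparison, 1 panel each, for TAC-NT, TAC-LUC and sham hearts (x axis); points are single arrays and bars are group means with their SD, and the dashed line, where in range, is the limit of 5.66. Cx3cl1, Cxcl16 and Il18bp sit higher and Il10rb, Il15, Il15ra and Ccl11 lower in all 6 TAC hearts than in any sham heart, while Il4ra and Il1r1 spread widely among the TAC-LUC hearts.

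Cx3cl1 (fractalkine) is a chemokine tethered to the cell membrane, found on endothelium, and Cx3cr1 is its receptor on monocytes and macrophages. Cx3cl1 had 6.90, 6.79 and 6.77 in TAC-NT hearts, 7.14, 7.10 and 6.81 in TAC-LUC hearts and 6.19, 6.34 and 6.32 in sham hearts. Every TAC heart lay above every sham heart, and the TAC-NT and TAC-LUC ranges overlapped. It rose by 0.73 ± 0.089 log2 units (SE), or 1.66-fold, in TAC-LUC against sham (limma, adjusted p = 0.00044), and by 0.54 ± 0.089 in TAC-NT against sham (adjusted p = 0.00256). Between TAC-NT and TAC-LUC the difference was -0.20 ± 0.089 (adjusted p = 0.355).

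Values of the receptor Cx3cr1 differed among the TAC-LUC hearts. It had 6.58, 6.75 and 6.60 in TAC-NT hearts, 6.64, 5.95 and 5.90 in TAC-LUC hearts and 6.11, 6.18 and 6.08 in sham hearts. All TAC-NT hearts and TAC-LUC heart 1 lay above the sham hearts, and TAC-LUC hearts 2 and 3 lay below them. The difference of TAC-NT from sham was 0.52 ± 0.17 (adjusted p = 0.051), just short of the threshold, and that of TAC-LUC from sham 0.04 ± 0.17 (adjusted p = 0.902). The TAC-NT difference from sham passed the threshold without any 1 of the TAC-LUC hearts, at adjusted p = 0.000398 without heart 1, 0.0479 without heart 2 and 0.0401 without heart 3.

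Cxcl16, a membrane-bound ligand for Cxcr6, had 6.92, 6.92 and 7.08 in TAC-NT hearts, 7.28, 6.95 and 6.77 in TAC-LUC hearts and 6.46, 6.41 and 6.39 in sham hearts. The TAC hearts all lay above the sham hearts. It rose by 0.58 ± 0.11 in TAC-LUC (adjusted p = 0.00535) and by 0.55 ± 0.11 in TAC-NT (adjusted p = 0.00728), each against sham. Its receptor Cxcr6 was above the limit in 1 array only, TAC-LUC heart 1, and was not tested.

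Cxcl10, an interferon-induced ligand of Cxcr3, had 5.87, 5.76 and 6.09 in TAC-NT hearts, 6.46, 5.82 and 6.05 in TAC-LUC hearts and 5.51, 5.58 and 5.51 in sham hearts. All 6 TAC hearts lay above the sham hearts, which were all under the limit. Cxcl10 passed the filter only through the TAC hearts, so its rise was partly set by the filter. With no filter, the limma adjusted p in TAC-LUC against sham was 0.0426. It rose by 0.57 ± 0.14 in TAC-LUC against sham (adjusted p = 0.0175), with adjusted p = 0.0554 without sham heart 1 and 0.0503 without sham heart 3. In TAC-NT the difference from sham was 0.38 ± 0.14 (adjusted p = 0.0979), which passed without TAC-LUC heart 1 (0.0161) or heart 2 (0.0498).

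Cxcl12 and its receptor Cxcr4 were called in different comparisons. Cxcl12, with the values given above, fell by 0.52 ± 0.16 in TAC-LUC against sham (adjusted p = 0.0409), although TAC-LUC heart 1 lay within the sham range. The call was lost without TAC-LUC heart 2 or 3, sham heart 1 or 2, or any 1 of the TAC-NT hearts, with adjusted p of 0.0516 to 0.137 and differences of -0.544 to -0.388. In TAC-NT against sham the difference was -0.18 ± 0.16 (adjusted p = 0.496). Cxcr4 had 6.63, 6.33 and 6.48 in TAC-NT hearts, 6.15, 5.91 and 6.09 in TAC-LUC hearts and 6.27, 6.14 and 6.03 in sham hearts. Every TAC-NT heart lay above every other heart, and TAC-LUC and sham hearts overlapped. It rose by 0.33 ± 0.096 in TAC-NT against sham (adjusted p = 0.0341), a call lost without TAC-NT heart 1 (adjusted p = 0.127) or 3 (0.0895), or sham heart 2 (0.0808) or 3 (0.114). Its difference between TAC-LUC and sham was -0.10 ± 0.096 (adjusted p = 0.523).

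Ccl11 (eotaxin), which attracts eosinophils through Ccr3, was the only CC chemokine called. It had 5.49, 5.52 and 5.47 in TAC-NT hearts, 5.51, 5.55 and 5.60 in TAC-LUC hearts and 6.05, 5.79 and 6.02 in sham hearts. All TAC hearts lay below the sham hearts and under the limit. Ccl11 passed the filter only through the sham hearts, so its fall was partly set by the filter. It fell by 0.40 ± 0.07 in TAC-LUC (adjusted p = 0.00316) and by 0.46 ± 0.07 in TAC-NT (adjusted p = 0.00168), against sham. Since the TAC values sit at the foot of the scale, the size of the fall is compressed. Ccl24, another eotaxin, was above the limit in 1 array, with 5.44, 5.40 and 5.44 in TAC-NT, 5.43, 5.43 and 5.46 in TAC-LUC and 5.69, 5.53 and 5.59 in sham hearts, and was not tested.

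Ccl2, Ccl7 and Cxcl1 were not called in any comparison. Ccl2, the main ligand of Ccr2, had 6.18, 6.39 and 6.13 in TAC-NT hearts, 6.34, 6.66 and 6.32 in TAC-LUC hearts and 6.13, 6.08 and 6.68 in sham hearts, and the sham range covered all of the TAC values. Its difference of TAC-LUC from sham was 0.14 ± 0.16 (adjusted p = 0.59). Ccl7, a related ligand, had 5.84, 5.85 and 5.87 in TAC-NT, 5.87, 5.82 and 5.90 in TAC-LUC and 6.04, 5.78 and 6.15 in sham hearts. Without sham heart 2 its differences from sham passed the threshold, at -0.239 in TAC-NT (adjusted p = 0.017) and -0.231 in TAC-LUC (adjusted p = 0.0186). That heart was the only sham heart below the TAC hearts, so leaving it out favours such differences and is no separate test. Cxcl1, a neutrophil chemokine, had 6.93, 6.96 and 6.87 in TAC-NT, 7.11, 7.02 and 6.72 in TAC-LUC and 6.72, 7.15 and 6.64 in sham hearts, with groups that overlapped.

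Ccl6 and Ccl9, macrophage chemokines on chromosome 11, varied with each other from heart to heart. Ccl6 had 6.45, 7.22 and 6.41 in TAC-NT hearts, 6.93, 7.12 and 7.23 in TAC-LUC hearts and 7.08, 7.32 and 7.78 in sham hearts, and Ccl9 had 6.29, 6.98 and 6.17 in TAC-NT hearts, 6.74, 7.12 and 7.12 in TAC-LUC hearts and 6.55, 6.81 and 7.33 in sham hearts. For both genes TAC-NT heart 2 was well above TAC-NT hearts 1 and 3, and sham heart 3 was the highest of the 9. Neither was called: Ccl6 differed from sham by -0.70 ± 0.23 in TAC-NT (adjusted p = 0.0582), and Ccl9 by -0.41 ± 0.24 (adjusted p = 0.273). The Ccl6 difference passed the threshold without TAC-NT heart 2, at -0.960 (adjusted p = 0.00805), or without sham heart 1, at -0.851 (adjusted p = 0.0478). Of the 17 macrophage and myeloid markers, 11 (64.7%) were highest among the TAC-NT hearts in heart 2, as were 34.6% of all genes tested. The part of such cells in the Ccl6 and Ccl9 values was not tested.

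Il15 and Il15ra fell as a pair in both TAC groups. Il15ra binds interleukin-15 and presents it to neighbouring cells, which sustains natural killer cells and memory T cells. Il15 had 6.64, 6.54 and 6.65 in TAC-NT hearts, 6.48, 6.25 and 6.40 in TAC-LUC hearts and 7.20, 7.19 and 6.75 in sham hearts, and Il15ra had 6.64, 6.64 and 6.66 in TAC-NT hearts, 6.77, 6.44 and 6.47 in TAC-LUC hearts and 7.11, 6.93 and 7.49 in sham hearts. For both genes every TAC heart lay below every sham heart, and for Il15 every TAC-NT heart also lay above every TAC-LUC heart.

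In TAC-LUC against sham Il15 fell by 0.67 ± 0.12 (adjusted p = 0.00304) and Il15ra by 0.62 ± 0.14 (adjusted p = 0.00949). In TAC-NT against sham Il15 fell by 0.44 ± 0.12 (adjusted p = 0.0245) and Il15ra by 0.53 ± 0.14 (adjusted p = 0.0213). The TAC-NT calls were less firm. That of Il15 was lost without any 1 TAC-NT heart or without sham heart 1 or 2, with adjusted p of 0.0558 to 0.0853 and differences of -0.460 to -0.361. That of Il15ra was lost without any 1 TAC-NT heart, with adjusted p of 0.0569 to 0.0642 and differences of -0.533 to -0.523. Il15 was the only interleukin called against sham in either TAC group.

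None of the other interleukins above the limit was called in any comparison. Il33, an alarmin of the interleukin-1 family, had 5.89, 5.92 and 6.09 in TAC-NT, 6.09, 6.27 and 6.02 in TAC-LUC and 5.87, 5.83 and 6.04 in sham hearts, a difference of 0.22 ± 0.086 in TAC-LUC against sham (adjusted p = 0.0973). Il16, a T cell chemoattractant, had 6.14, 6.11 and 6.06 in TAC-NT, 6.07, 5.77 and 5.81 in TAC-LUC and 5.90, 5.89 and 5.87 in sham hearts. All TAC-NT hearts lay above the sham hearts for Il16 (0.22 ± 0.075, adjusted p = 0.0689), which passed without TAC-LUC heart 1 (adjusted p = 0.00861). Il34, a ligand of the macrophage receptor Csf1r, had 5.78, 5.84 and 5.83 in TAC-NT, 5.83, 5.88 and 5.81 in TAC-LUC and 5.78, 5.78 and 5.87 in sham hearts, with groups that overlapped.

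Of the receptor chains, Il10rb had the smallest p against sham. It had 9.17, 9.19 and 9.13 in TAC-NT hearts, 9.01, 8.99 and 8.96 in TAC-LUC hearts and 9.46, 9.54 and 9.45 in sham hearts, 3 ranges that did not overlap, with TAC-NT in between. It fell by 0.50 ± 0.046 in TAC-LUC (adjusted p = 0.000113) and by 0.32 ± 0.046 in TAC-NT (adjusted p = 0.00117), against sham. Il10rb pairs with Il10ra to bind interleukin-10, and Il10ra had 5.62, 5.73 and 5.78 in TAC-NT, 5.89, 5.69 and 5.71 in TAC-LUC and 5.65, 5.69 and 5.65 in sham hearts. Il10 itself was above the limit in 0 arrays.

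Il13ra1 and Il4ra together form the receptor chain pair for interleukin-4 and interleukin-13 on cells other than lymphocytes. Il13ra1 had 9.59, 9.48 and 9.65 in TAC-NT hearts, 9.23, 9.49 and 9.47 in TAC-LUC hearts and 9.21, 9.10 and 9.02 in sham hearts, and all TAC hearts lay above the sham hearts. It rose by 0.46 ± 0.084 in TAC-NT (adjusted p = 0.00414) and by 0.28 ± 0.084 in TAC-LUC (adjusted p = 0.0352), against sham. The TAC-LUC call was lost without TAC-LUC heart 2 or 3, sham heart 2 or 3, or TAC-NT heart 1, with adjusted p of 0.0549 to 0.116 and differences of 0.234 to 0.283. It was also lost with no filter, with only the 6 arrays compared and with the replicate number as a block (limma adjusted p = 0.0683 with the block).

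Il4ra had 7.44, 7.72 and 7.40 in TAC-NT hearts, 7.61, 8.86 and 8.16 in TAC-LUC hearts and 7.04, 7.33 and 7.45 in sham hearts. TAC-LUC hearts 2 and 3 stood above all other hearts, while TAC-LUC heart 1 lay within the TAC-NT range. Il4ra rose by 0.94 ± 0.26 in TAC-LUC against sham (adjusted p = 0.028), and its adjusted p was 0.0616 without TAC-LUC heart 3, 0.0987 without sham heart 1 and 0.0618 without sham heart 2. With each array left out in turn, this difference ran from 0.611 to 1.236. In TAC-NT the difference from sham was 0.24 ± 0.26 (adjusted p = 0.584). Interleukin-4 (Il4) was above the limit in 0 arrays and Il13 lay near it.

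Il1r1, the signalling receptor of interleukin-1, had 6.42, 6.31 and 6.46 in TAC-NT hearts, 6.40, 7.45 and 6.95 in TAC-LUC hearts and 6.22, 5.98 and 6.23 in sham hearts. It rose by 0.79 ± 0.21 in TAC-LUC against sham (adjusted p = 0.0237), with adjusted p = 0.0616 without TAC-LUC heart 3, 0.0543 without sham heart 1 and 0.0766 without sham heart 2. With each array left out in turn, this difference ran from 0.532 to 1.058. Il17ra, the shared receptor of several interleukin-17 cytokines, had 5.87, 5.88 and 5.86 in TAC-NT hearts, 5.91, 6.36 and 6.10 in TAC-LUC hearts and 5.82, 5.69 and 5.73 in sham hearts. It rose by 0.38 ± 0.099 in TAC-LUC against sham (adjusted p = 0.0206), with adjusted p = 0.0642 without sham heart 2 and 0.0568 without sham heart 3. As with Il4ra, hearts 2 and 3 were the high ones among the TAC-LUC hearts for both genes.

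Il6ra, the ligand-binding chain for interleukin-6, had 6.26, 6.32 and 6.29 in TAC-NT hearts, 6.47, 6.55 and 6.57 in TAC-LUC hearts and 6.35, 6.36 and 6.41 in sham hearts. The TAC-LUC hearts lay above all others and the TAC-NT hearts below all others. It rose by 0.16 ± 0.047 in TAC-LUC against sham (adjusted p = 0.0364), a call lost without TAC-LUC heart 2 or 3, sham heart 1 or 2, or any 1 TAC-NT heart (adjusted p of 0.0541 to 0.108, differences of 0.136 to 0.156). Its partner Il6st had 10.40, 10.51 and 10.39 in TAC-NT, 10.42, 10.30 and 10.42 in TAC-LUC and 10.32, 10.30 and 10.16 in sham hearts. It differed from sham by 0.17 ± 0.063 in TAC-NT (adjusted p = 0.0784) and by 0.12 ± 0.063 in TAC-LUC (adjusted p = 0.205).

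Of the antagonists, Il18bp was called and Il1rn was not. Il18bp is a secreted protein that binds interleukin-18 and keeps it from its receptor. It had 7.68, 7.62 and 7.70 in TAC-NT hearts, 7.76, 7.68 and 7.58 in TAC-LUC hearts and 7.05, 7.26 and 7.29 in sham hearts, and all TAC hearts lay above the sham hearts. It rose by 0.47 ± 0.074 in TAC-LUC (adjusted p = 0.00175) and by 0.46 ± 0.074 in TAC-NT (adjusted p = 0.00209), against sham. Il18 was above the limit in 0 arrays. Il1rn, the interleukin-1 receptor antagonist, had 5.95, 5.96 and 5.97 in TAC-NT, 6.0, 5.96 and 5.88 in TAC-LUC and 5.93, 6.02 and 5.87 in sham hearts, with groups that overlapped.

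**Figure D3:**
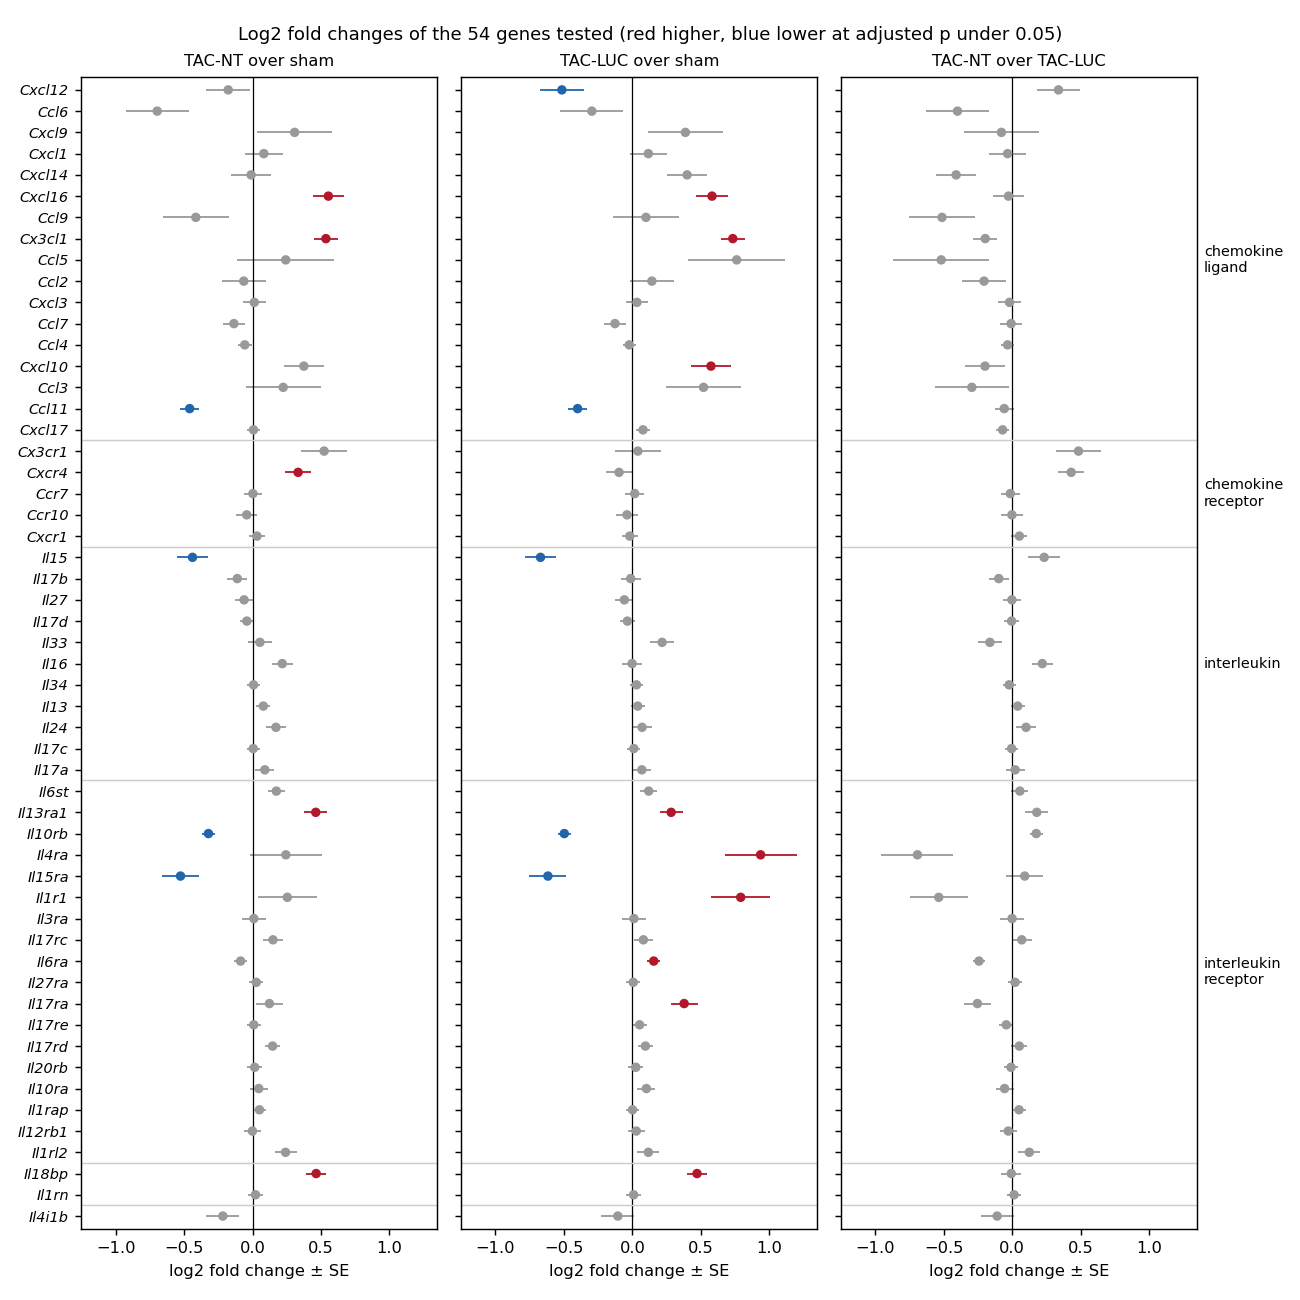
Log2 fold change ± SE (x axis) of each of the 54 genes tested, 1 row per gene (y axis), grouped by role and ordered within a role by mean signal; the panels are TAC-NT over sham, TAC-LUC over sham and TAC-NT over TAC-LUC. Red points rose and blue points fell at an adjusted p under 0.05, with 5 red and 4 blue in the first panel, 9 red and 5 blue in the second and none in the last.

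With HDAC4-NT in place of luciferase under TAC, none of the 54 genes was called (limma, adjusted p under 0.05), and 0.254% of all genes tested were, 0.143% higher and 0.111% lower. At an unadjusted p under 0.05, 9 of the 54 and 1807 of all 12597 genes passed. TAC-NT hearts lay wholly above TAC-LUC hearts for 5 genes (Cxcr4, Il10rb, Il15, Il1rap and Il1rl2) and wholly below for 3 (Il6ra, Il17ra and Cxcl17), against 11.6% and 8.8% of all genes tested. Il1rl2 passed the filter only through the TAC-NT hearts, so its place among the 5 was partly set by the filter. The median log2 difference was -0.012 over the 54 genes and 0.004 over all genes tested. For 1 of the 17 chemokine ligands tested, Cxcl12, the difference was above 0, and the median over the 17 was -0.08. These signs include TAC-LUC heart 1, the highest of the 9 hearts for 16 of the 54 genes (29.6%), against 12.4% of all genes tested. They were not recounted without that heart, and the share of all genes above 0 was not counted. The count of signs is therefore no result about HDAC4-NT.

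The 9 genes at an unadjusted p under 0.05 were Cxcr4, Cx3cr1, Il10rb and Il16, higher in TAC-NT, and Il6ra, Il17ra, Il1r1, Il4ra and Cxcl14, lower in TAC-NT. The smallest adjusted p was that of Il6ra, with a difference of -0.24 ± 0.047 (adjusted p = 0.0611), and the next that of Cxcr4, 0.43 ± 0.096 (adjusted p = 0.086). Il10rb differed by 0.18 ± 0.046 (adjusted p = 0.122), Cx3cr1 by 0.48 ± 0.17 (adjusted p = 0.232) and Il4ra by -0.69 ± 0.26 (adjusted p = 0.271). Cxcl14, a chemokine of epithelia and fibroblasts, had 6.51, 7.0 and 6.64 in TAC-NT, 7.43, 6.94 and 7.01 in TAC-LUC and 6.70, 6.80 and 6.69 in sham hearts, a difference of -0.41 ± 0.15 (adjusted p = 0.244).

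This comparison turned on TAC-LUC heart 1. Without it, 8 of the 54 genes were called. Higher in TAC-NT were then Cx3cr1 by 0.722 (adjusted p = 0.000864), Cxcl12 by 0.516 (0.0475), Cxcr4 by 0.481 (0.0326) and Il16 by 0.313 (0.0102). Lower were Il4ra at -0.992 (adjusted p = 0.0252), Il1r1 at -0.804 (0.0131), Il17ra at -0.361 (0.0362) and Il6ra at -0.272 (0.0176). That is 14.8% of the 54, where 697 (5.53%) of all genes tested were called. Heart 1 correlated more closely with the TAC-NT hearts than with TAC-LUC hearts 2 and 3. Leaving it out therefore favours larger differences, so these calls describe hearts 2 and 3 and are no separate test of HDAC4-NT. Without both TAC-LUC hearts 2 and 3 the group is heart 1 alone, a setting chosen after its high Ccl5 and Ccl3 were seen. Ccl5 then differed by -1.57 and Ccl3 by -1.11, which describes that heart and is no test.

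The spread within groups bears on each of these counts. Over the 54 genes, the median range between the highest and lowest heart was 0.096 in TAC-NT, 0.207 in TAC-LUC and 0.164 in sham. The range exceeded 0.5 for 2 genes in TAC-NT, 9 in TAC-LUC and 6 in sham. Over all genes tested the median ranges were 0.114 in TAC-NT, 0.153 in TAC-LUC and 0.162 in sham.

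**Figure D4:**
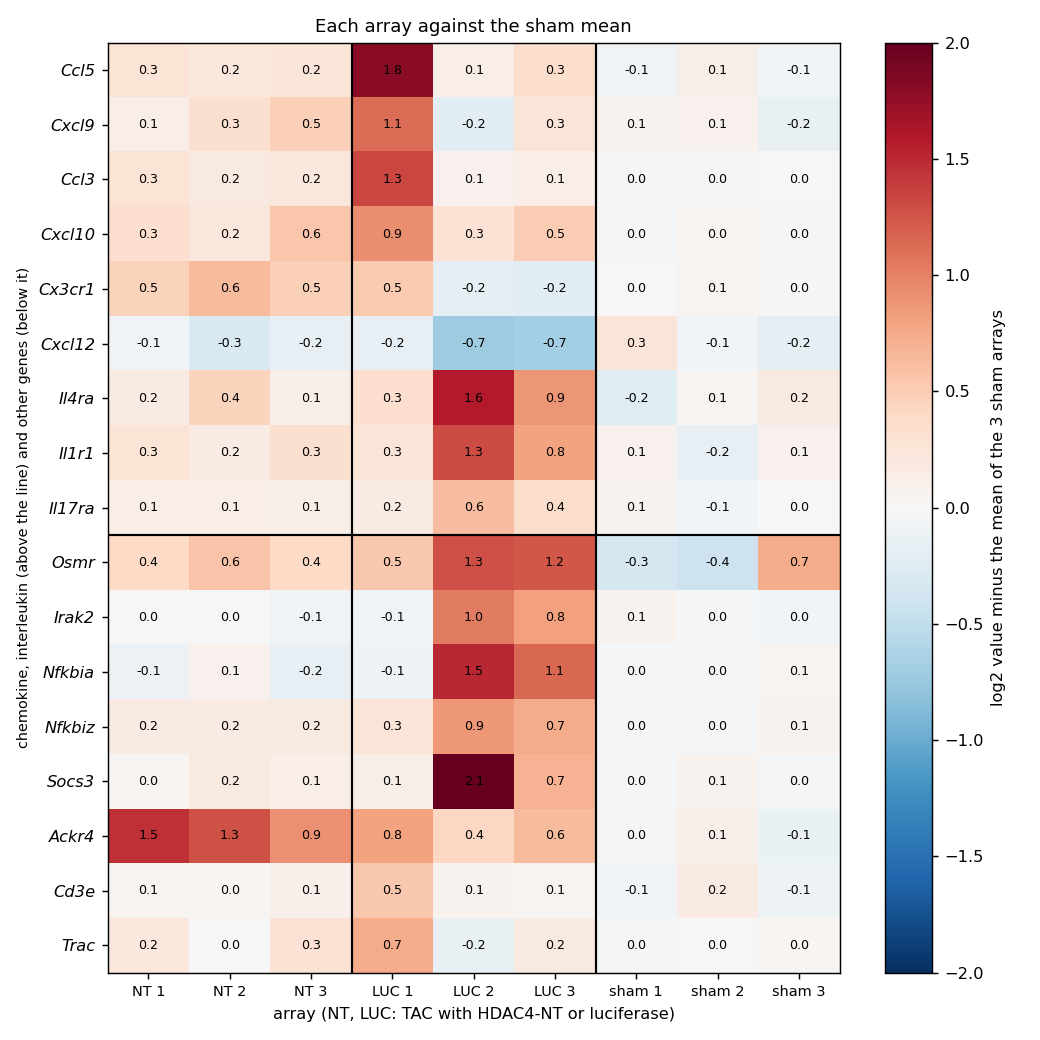
Difference of each heart from the sham mean (log2, colour and printed number) for chemokine and interleukin genes and related genes (rows), with the TAC-NT, TAC-LUC and sham hearts in columns. Ccl5, Ccl3 and Cxcl9 stand out in TAC-LUC heart 1 (1.81, 1.34 and 1.11), and Il4ra, Il1r1, Nfkbia and Socs3 in TAC-LUC hearts 2 and 3; the rows were chosen after the values were seen.

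TAC-LUC heart 1 was the highest of the 9 hearts for 16 of the 54 genes (29.6%), and for 12.4% of all genes tested. Ccl5, Cxcl9 and Ccl3, chosen after their values were seen, are described here. Ccl5, a ligand of T cells and monocytes, had 6.59, 6.54 and 6.56 in TAC-NT hearts, 8.13, 6.45 and 6.66 in TAC-LUC hearts and 6.25, 6.44 and 6.26 in sham hearts. Cxcl9, an interferon gamma-induced ligand of Cxcr3, had 6.93, 7.12 and 7.27 in TAC-NT, 7.91, 6.58 and 7.06 in TAC-LUC and 6.87, 6.89 and 6.64 in sham hearts. Ccl3, a macrophage inflammatory protein, had 5.70, 5.61 and 5.66 in TAC-NT, 6.77, 5.52 and 5.58 in TAC-LUC and 5.46, 5.42 and 5.43 in sham hearts. In each case heart 1 exceeded every other heart and hearts 2 and 3 lay far below heart 1. The differences of TAC-LUC from sham did not pass: 0.76 ± 0.35 for Ccl5 (adjusted p = 0.15), 0.52 ± 0.27 for Ccl3 (adjusted p = 0.203) and 0.39 ± 0.27 for Cxcl9 (adjusted p = 0.352).

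Of 7 T cell markers on the array 3 were tested, and none was called in any comparison. Of those tested, Cd3e and Trac were highest in TAC-LUC heart 1. Of those not tested, Cd8a (5.91), Cd8b1 (5.90) and Cd3g (5.39, under the limit) were also highest in that heart. Cd3d, a defining marker that was not tested, lay between 5.24 and 5.28 in all hearts. The summed level of the 7 markers was 8.41 to 8.47 in TAC-NT hearts, 8.39 to 8.76 in TAC-LUC hearts, with heart 1 the highest, and 8.37 to 8.44 in sham hearts. Cd3e had 6.04, 6.02 and 6.08 in TAC-NT, 6.52, 6.06 and 6.05 in TAC-LUC and 5.93, 6.15 and 5.88 in sham hearts. Cd4 had 5.80, 5.79 and 5.82 in TAC-NT, 5.81, 5.78 and 5.83 in TAC-LUC and 5.75, 5.74 and 5.69 in sham hearts, without such a peak. The part of T cell number in the chemokine values was not tested.

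TAC-LUC hearts 2 and 3 were the high ones for Il4ra, Il1r1 and Il17ra, but not for most of the 54 genes. Of the 54, both hearts exceeded heart 1 for 13 (24.1%), against 33.6% of all genes tested. For 33 (61.1%) both lay below heart 1, against 41.3% of all genes tested. Both hearts exceeded heart 1 for 9 of the 20 JAK-STAT genes tested (45.0%) and 10 of the 21 genes of interleukin-1 and NF-kB signalling (47.6%), against 33.6% of all genes tested. Both lay below heart 1 for 6 of the 20 and 4 of the 21, against 41.3% of all genes tested. Socs3 and Nfkbia, chosen after their values were seen, are described here, while Cish and Socs1 had no such gap. Socs3, a feedback inhibitor of JAK-STAT signalling, had 6.08, 6.22 and 6.18 in TAC-NT hearts, 6.16, 8.14 and 6.74 in TAC-LUC hearts and 6.02, 6.12 and 6.0 in sham hearts. Nfkbia, the NF-kB inhibitor that NF-kB itself induces, had 7.03, 7.23 and 6.98 in TAC-NT hearts, 7.04, 8.66 and 8.30 in TAC-LUC hearts and 7.13, 7.12 and 7.20 in sham hearts. Both were far higher in TAC-LUC hearts 2 and 3 than in heart 1, which lay within the TAC-NT range. Their differences of TAC-LUC from sham were 0.97 ± 0.39 (adjusted p = 0.101) and 0.85 ± 0.33 (adjusted p = 0.0901). Of the 17 macrophage and myeloid markers, hearts 2 and 3 both exceeded heart 1 for 5 and both lay below it for 11, and their summed level was 12.35, 12.12 and 12.12 in TAC-LUC hearts 1 to 3. The summed level of 4 atrial markers was 8.23 to 9.83 in TAC-NT hearts, 8.32, 8.79 and 10.97 in TAC-LUC hearts 1 to 3, and 8.96 to 10.4 in sham hearts. Its part in these values was not tested.

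With TAC-LUC hearts 2 and 3 both left out, TAC-LUC against sham rested on heart 1 alone, whose spread was assumed to be that of the other groups. Then 9 of the 54 genes were called higher and 2 lower (20.4%), where 15.3% of all genes tested were called, 7.41% higher and 7.87% lower. The setting was chosen after heart 1 was seen to be high for Ccl5, Ccl3 and Cxcl9, so their differences of 1.81, 1.34 and 1.11 describe that heart and are no test. Of the 14 genes called with all hearts, 6 were called here too: Cx3cl1, Cxcl16, Cxcl10, Il18bp, Il10rb and Ccl11. The other 8 were not. They were Il4ra at 0.337 (adjusted p = 0.246), Il1r1 at 0.256 (0.191), Il17ra at 0.164 (0.204), Il13ra1 at 0.113 (0.51), Il6ra at 0.098 (0.402), Il15 at -0.566 (0.0593), Il15ra at -0.405 (0.184) and Cxcl12 at -0.157 (0.589).

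Calls against sham differed in how far they rested on single hearts. Of the 14 calls in TAC-LUC, 7 held without each array in turn (Ccl11, Cx3cl1, Cxcl16, Il10rb, Il15, Il15ra and Il18bp), and 5 of these (Ccl11, Cx3cl1, Cxcl16, Il10rb and Il18bp) held under every other setting in which they were tested. Of the 9 in TAC-NT, 6 held under every setting in which they were tested (Ccl11, Cx3cl1, Cxcl16, Il10rb, Il13ra1 and Il18bp). Ccl11 did not pass the filter at the 60th percentile and was not tested there. It passed the main filter only through the sham hearts, so its fall was partly set by the filter. No called difference reversed under any setting. In TAC-LUC, the calls of Cxcl12, Il13ra1, Il1r1 and Il4ra were also lost with no filter and with only the 6 arrays compared. That of Il17ra was lost with only the 6 arrays. That of Il6ra was lost with only the 6 arrays, the filter at the 60th percentile or the trended and robust prior. In TAC-NT, the calls of Cxcr4 and Il15 were lost with no filter.

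Markers of other cells were called in the comparisons against sham as well. Of 17 macrophage and myeloid markers, 9 rose and 1 fell in TAC-NT against sham, 7 rose and 0 fell in TAC-LUC against sham, and 0 were called between TAC-NT and TAC-LUC. Of all genes tested, 10.5% rose and 12.3% fell in TAC-NT and 11.2% rose and 14.9% fell in TAC-LUC, against sham. Their summed level was 11.97 to 12.15 in TAC-NT hearts, 12.12 to 12.35 in TAC-LUC hearts and 11.64 to 11.85 in sham hearts, so all TAC hearts exceeded all sham hearts. Of 8 fibroblast markers 6 rose in each TAC group against sham. Of 8 endothelial markers 1 rose and 0 fell in TAC-NT, and 1 rose and 2 fell in TAC-LUC. None of the B cell, neutrophil or mast cell markers tested was called. The part of these cells in the changes of Cx3cl1, Cxcl16, Il13ra1, Il18bp and the other genes was not tested.

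Genes around these ligands and receptors were described from 4 lists, whose counts stand beside 22.8% of all genes called in TAC-NT and 26.1% in TAC-LUC, against sham. Of 5 atypical chemokine receptors 4 were tested, and 2 rose in TAC-LUC and 1 in TAC-NT against sham. Ackr4, a scavenger of Ccl19, Ccl21 and Ccl25, had 7.24, 7.06 and 6.70 in TAC-NT hearts, 6.60, 6.21 and 6.42 in TAC-LUC hearts and 5.81, 5.89 and 5.66 in sham hearts. The 3 groups did not overlap. It rose by 1.21 ± 0.14 in TAC-NT against sham (adjusted p = 0.000397) and by 0.62 ± 0.14 in TAC-LUC against sham (adjusted p = 0.0116), and TAC-NT differed from TAC-LUC by 0.59 ± 0.14 (adjusted p = 0.0984). Ackr2, a scavenger of inflammatory CC chemokines, rose by 0.25 ± 0.061 in TAC-LUC against sham (adjusted p = 0.0158).

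Of 7 further genes of the gp130 family on the array 5 were tested: 0 rose and 2 fell in TAC-NT, and 1 rose and 2 fell in TAC-LUC, against sham. Lifr, the receptor of leukemia inhibitory factor, had 7.15, 7.25 and 7.07 in TAC-NT hearts, 6.95, 7.05 and 7.16 in TAC-LUC hearts and 7.99, 7.80 and 8.03 in sham hearts. It fell by 0.78 ± 0.081 in TAC-NT (adjusted p = 0.00021) and by 0.89 ± 0.081 in TAC-LUC (adjusted p = 0.000109). Ctf1 (cardiotrophin-1), a ligand of that receptor, fell by 0.21 ± 0.056 in TAC-NT (adjusted p = 0.026) and by 0.22 ± 0.056 in TAC-LUC (adjusted p = 0.0188). Osmr, the oncostatin M receptor chain, had 8.16, 8.33 and 8.16 in TAC-NT, 8.30, 9.04 and 9.0 in TAC-LUC and 7.42, 7.35 and 8.51 in sham hearts and rose by 1.02 ± 0.30 in TAC-LUC (adjusted p = 0.0327), with TAC-LUC hearts 2 and 3 above heart 1 and sham heart 3 well above the other sham hearts. Without TAC-LUC hearts 2 and 3 the difference of Osmr was 0.542 (adjusted p = 0.413).

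Of 21 JAK-STAT genes on the array 20 were tested, and 2 rose and 1 fell in TAC-NT while 4 rose and 2 fell in TAC-LUC, against sham. Stat3, the main transcription factor downstream of gp130, rose by 0.42 ± 0.089 in TAC-NT (adjusted p = 0.00851) and by 0.52 ± 0.089 in TAC-LUC (adjusted p = 0.00265). Ptpn11, the SHP2 phosphatase, rose by 0.31 ± 0.08 in TAC-NT (adjusted p = 0.0225) and by 0.26 ± 0.08 in TAC-LUC (adjusted p = 0.0369). Stat5b, which relays interleukin-2 family and growth hormone signals, fell by 0.23 ± 0.053 in TAC-NT (adjusted p = 0.0119) and by 0.26 ± 0.053 in TAC-LUC (adjusted p = 0.00707). In TAC-LUC against sham, Socs2 and Jak3 also rose, by 0.60 ± 0.16 (adjusted p = 0.0234) and 0.38 ± 0.12 (adjusted p = 0.0444), and Stat5a fell by 0.35 ± 0.092 (adjusted p = 0.0221).

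Of 23 genes of interleukin-1 and NF-kB signalling on the array 21 were tested, and 0 rose and 2 fell in TAC-NT while 1 rose and 2 fell in TAC-LUC, against sham. Tollip, an inhibitor of the interleukin-1 receptor complex, fell by 0.33 ± 0.071 in TAC-NT (adjusted p = 0.00978) and by 0.28 ± 0.071 in TAC-LUC (adjusted p = 0.0171). Nfkbiz, an inducible NF-kB cofactor, had 5.88, 5.88 and 5.91 in TAC-NT, 5.98, 6.59 and 6.46 in TAC-LUC and 5.70, 5.68 and 5.79 in sham hearts and rose by 0.62 ± 0.13 in TAC-LUC (adjusted p = 0.00712), with TAC-LUC hearts 2 and 3 well above heart 1. Without those hearts the difference of Nfkbiz was 0.263 (adjusted p = 0.0495). Nfkbib fell in TAC-NT by 0.23 ± 0.06 (adjusted p = 0.0215), and Tab1 in TAC-LUC by 0.30 ± 0.097 (adjusted p = 0.0452). In none of the 4 lists was a gene called between TAC-NT and TAC-LUC, where 0.254% of all genes tested were.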

How the data were processed

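Per the labels' protocols, total RNA (Trizol) was made into biotinylated cRNA for Affymetrix arrays. The deposited values are log2 expression values, for which the submitters' processing notes name RMA. The RMA version, genome build and probe set definitions are missing from the sources used here. Sorted, the 9 columns were identical (largest difference 0), as quantile normalization leaves them. RMA compresses low values, so changes of weakly expressed genes are understated, and the table holds no detection call.

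Of 21225 probe sets, 20239 had 1 gene symbol in the platform annotation, with 1 probe set per gene, and 986 are unnamed here and were not analysed. The gene IDs of all 127 chemokine and interleukin genes were found in a RefSeq table of GRCm38.p6. The filter asked for 3 or more arrays above the 40th percentile of the whole table. That kept 12597 genes and removed 7642.

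The labels give 3 animals per group, each on 1 array. In limma 3.58.1 (R 4.3.3) a model with a mean per group was fitted to the 9 arrays together (6 residual and 3.23 prior degrees of freedom). Genes were called at a Benjamini-Hochberg adjusted p under 0.05 over all genes tested. The fit was tested on simulated data. Promoter windows were searched on both strands in Python 3.11.15, and figures were drawn with matplotlib 3.10.9.

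The genes, lists and tests were chosen with earlier results of these data known. Every called gene is named (up to 12 per direction and comparison), with the 8 of highest mean, those at the limit, and genes named whatever their values. The 4 lists of related genes were described by counts, with called genes and examples named. Rows of the heart comparison plot, and Ccl3, Ccl5, Cd3e, Cd3g, Cd4, Cd8a, Cd8b1, Trac, Socs3 and Nfkbia in the text, were chosen after their values were seen. Marker lists covered macrophages, T cells, B cells, neutrophils, mast cells, endothelium, fibroblasts, cardiomyocytes and atria. A marker list's summed level is log2 of the sum of its linear values.

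Alternatives were other filters, cyclic loess scaling, array weights, a trended and robust prior, only the arrays compared, a threshold of 0.10, 2 kinds of block, and each array left out.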

Additional observations from a re-analysis of the deposited data

How the results depend on the processing

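The calls were recomputed under each alternative, and no called difference changed sign. In TAC-LUC against sham, 26.1% of all genes tested were called, 20.2% with only the 6 arrays of the 2 groups and 19.3% to 25.6% without single arrays. Of the 54 genes, 14 were called. With only the 6 arrays of the 2 groups the count was 8, without single arrays it was 9 to 14, and among all genes 3283 calls became 1926 without TAC-LUC hearts 2 and 3. In TAC-NT against TAC-LUC, 0 genes were called. The count was 2 at an adjusted p under 0.10, 8 with array weights, 2 without TAC-LUC hearts 2 and 3, 1 with the sample code number as a random block, and 0 to 8 without single arrays (8 without TAC-LUC heart 1). Among all genes its 32 calls became 297 at 0.10, 827 with array weights, 10 without TAC-LUC hearts 2 and 3, 103 with the filter at the 60th percentile, 10 with no filter, 0 with only the 6 arrays, 177 with the sample code block, 75 with a trended and robust prior, and 1 to 697 without single arrays. In TAC-NT against sham, 9 genes were called, and 15 at 0.10, 15 with only the 6 arrays, 14 with the sample code block and 6 to 15 without single arrays. Of all genes tested 22.8% were called, and 29.3%, 24.3%, 27.5% and 15.2% to 25.1% under these settings in turn. Leaving out TAC-LUC hearts 2 and 3 is the same fit for this comparison as only the 6 arrays. The cause of these shifts in count was not tested. Sample code numbers do not cross the groups, so any batch they mark and the group cannot be told apart.

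Replicate numbers are shared between groups but did not pair the hearts: same-numbered deviations correlated at -0.123 to 0.0618 in TAC-LUC with sham, 0.0263 to 0.199 in TAC-NT with TAC-LUC and 0.0023 to 0.13 in TAC-NT with sham. With the replicate number as a block, 13 genes were called in TAC-LUC against sham, 1 in TAC-NT against TAC-LUC (Cxcr4, limma adjusted p = 0.0474) and 9 in TAC-NT against sham. Of all genes tested, 24.3%, 0.841% (106 genes) and 21.2% were called in these comparisons in turn. The signal over background is unknown for RMA values, so the 73 genes under the limit give no evidence either way.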
